A study of Mus musculus with 18 samples.

Results

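YFP-sorted immune cells of mouse atherosclerotic arteries were compared with cells of other sort gates whose RNA held high levels of both Cx3cr1 and Itgax. The comparison took 8 of the 18 libraries of the series. On the first side stood 4 of the 5 YFP libraries (replicates 1, 3, 4 and 5), and the shallow YFP replicate 6 was left out. On the second stood DP replicates 1 and 2 and DN replicates 3 and 6, which are 4 of the 7 libraries labelled DP or DN. The grouping of these 4 was chosen from the counts of these 2 genes, Cx3cr1 and Itgax, whatever the label. Those genes are therefore described without a test, and the p-values of all other genes do not account for the choice.

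Per the labels, the libraries came from male and female C57BL/6 mice that lacked Apoe, carried the reporters Cx3cr1GFP and Cd11cYFP, were 7 months old and had been on Western Diet for 5 months. Both sides of the comparison thus share the Apoe deficiency, the reporters and the diet, and mice without them are not analysed here. Aortas and carotid arteries were digested, and live CD45+ cells were sorted by fluorescence into YFP (GFP-negative, YFP-positive), DP (positive for both) and DN (negative for both) gates. The labels do not say whether replicates were separate mice or pools, so a p-value here reflects the spread of these libraries alone, and that spread may be technical.

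Cx3cr1 is the receptor of the chemokine fractalkine and marks monocytes and many tissue macrophages. Itgax encodes CD11c, an integrin subunit that pairs with CD18 and is carried by dendritic cells and by many lipid-loaded macrophages. In an atherosclerotic wall, macrophages take up lipoproteins, digest them in lysosomes and store or export the cholesterol, while resident macrophages of the outer wall and dendritic cells share some of the same surface proteins. A reporter shows where a gene's regulatory sequence has been active, and fluorescent protein and messenger RNA of the same cell need not match.

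Because these genes drive the reporters and chose the libraries, their promoters are shown, each from 250 bases before to 50 bases after the start site (RefSeq, GRCm38.p6, strand of the gene). Capitals mark GGAA or its reverse complement TTCC, the core letters of ETS-family sites such as those bound by the myeloid factor PU.1. The Cx3cr1 window lies at chr9:120068247-120068546 on the minus strand and holds 3 matches. The Itgax window lies at chr7:128129300-128129599 on the plus strand and holds 4.
Cx3cr1: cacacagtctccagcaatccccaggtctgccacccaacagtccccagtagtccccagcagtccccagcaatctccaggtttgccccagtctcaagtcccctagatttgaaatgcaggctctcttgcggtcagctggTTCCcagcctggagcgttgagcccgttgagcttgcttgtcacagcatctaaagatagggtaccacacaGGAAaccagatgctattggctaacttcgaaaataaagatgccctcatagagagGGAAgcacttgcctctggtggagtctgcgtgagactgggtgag
Itgax: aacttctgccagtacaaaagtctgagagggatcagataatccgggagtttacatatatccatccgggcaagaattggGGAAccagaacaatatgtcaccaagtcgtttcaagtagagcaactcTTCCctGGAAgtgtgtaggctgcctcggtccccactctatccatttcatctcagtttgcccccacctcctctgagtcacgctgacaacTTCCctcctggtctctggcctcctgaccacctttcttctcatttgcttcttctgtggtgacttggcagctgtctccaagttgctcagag
The core is short, and 31532 of 32851 promoters of the same length (96%) hold it on either strand, so the matches only describe these windows.

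Levels below are in CPM (counts relative to the library total, scaled to be comparable between libraries), listed for YFP 1, 3, 4 and 5 and then for DP 1, DP 2, DN 3 and DN 6. Cx3cr1 (chr9:119901616-120069879) stood at 0.905, 55.7, 55.6 and 27.5 CPM against 87.1, 118, 130 and 124 CPM. All 4 YFP libraries lay below the 4 others, and YFP 1, with 38 reads of the gene, lay far below the other YFP libraries. The 3 DP and DN libraries left out (DP 4, DP 5 and DN 1) had 8.6, 0.473 and 4.22 CPM, so the lowest library taken (87.1) and the highest left out (8.6) are far apart. Itgax (chr7:128129547-128150657) stood at 170, 348, 462 and 1169 CPM against 429, 311, 303 and 276 CPM. Here the groups overlapped: on this scale YFP 1 was the lowest of the 8 and YFP 5 the highest. The scaling factor (TMM) of the library total was 1.526 in YFP 1 and 0.4266 in YFP 5, beside 0.9392 to 1.266 in the others compared. Unscaled, YFP 5 had 11233 Itgax reads of 22549117 and DP 1 had 5484 of 10644558, so that order leans on the scaling. The 3 libraries left out had 35.2, 53 and 11.7 CPM, below the lowest library taken (276).

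**Figure D1:**
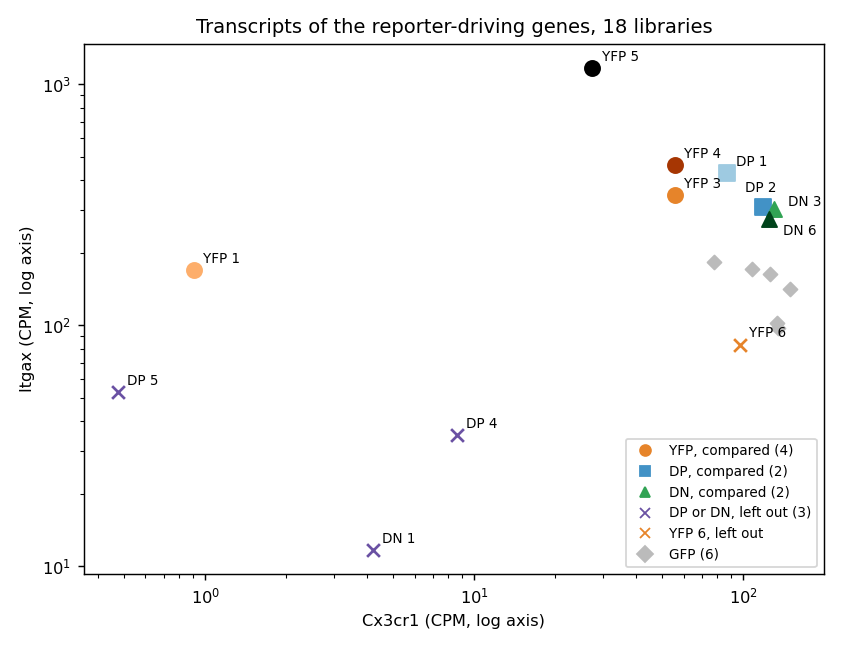
Cx3cr1 (horizontal) and Itgax (vertical) in CPM on log axes, 1 point per library of the series. The DP and DN libraries compared sit together at the upper right, the 3 left out sit at the lower left, and YFP 1, at 0.905 CPM of Cx3cr1, lies apart from the other YFP libraries compared.

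DN cells were sorted as negative for both reporters, yet DN 3 and DN 6 had as much Cx3cr1 transcript as the 6 GFP libraries (77.8 to 149 CPM) and more Itgax than any of those (97.7 to 184 CPM). Conversely DP 4 and DP 5, sorted as positive for both, held the low levels of both genes given above. YFP cells were sorted as GFP-negative, yet YFP 3 and YFP 4 held 55.7 and 55.6 CPM of Cx3cr1. Transcript and sort label thus disagree in part. Whether labels of DP and DN libraries were exchanged was not tested, so DP and DN below are names of the labels and may not describe the cells' fluorescence. Ptprc, which encodes CD45, was present in every library, at 427 to 822 CPM in YFP and 451 to 1139 CPM in the others. Apoe, which the mice lack, gave 15.8 to 22 CPM in YFP 1, 3 and 4, 217 CPM in YFP 5 and 15.4 to 36 CPM in the others. The sex-linked Xist (1.35 to 19.2 CPM in YFP, 2.54 to 35.7 CPM in the others) and Ddx3y (16 to 83.5 CPM against 0.34 to 115 CPM) varied within both groups. DN 6 had 5 reads of the Y-linked Ddx3y (0.34 CPM), the lowest of the 8 libraries. Both genes were well covered in YFP 1 (808 reads of Xist and 2165 of Ddx3y), YFP 4 (272 and 286), DP 1 (267 and 860) and DP 2 (439 and 583). Those libraries thus held transcripts of both sexes, and whether mice were pooled was not tested.

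Library totals ran from 9790946 counts (DP 2) to 27742113 counts (YFP 1), and YFP 6, left out, had 289166. Libraries stood apart within both groups. YFP 5 correlated with the other 7 at 0.611 to 0.729 (log2 CPM across genes, which are not independent), while those 7 correlated with each other at 0.823 to 0.973. After thinning to 9700000 counts it had the fewest genes detected, 13005, against 21132 in DP 2. Of 12941 genes tested, 86.2% lay outside the range of the DP and DN libraries in YFP 5 and 51% in YFP 1, but 22.8% in YFP 3 and 27.8% in YFP 4. Within the DP and DN group, DN 6 was above the other 3 libraries for 4782 genes and below them for 4739, and each of the others was above for 2258 to 3146 and below for 2407 to 3135. DP 1 and DP 2 are numbered 1 and 2 while DN 3 and DN 6 are numbered 3 and 6, so sort label and number cannot be told apart within that group.

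YFP libraries also differed from each other by transcript length. Over 11743 tested genes with a known length (90.7%), the 20% with the shortest transcripts (up to 2.02 kb) had a median log2 difference of 1.60 in YFP 5 from the mean of the DP and DN libraries, and the 20% with the longest (5.27 kb or more) had -1.41. DN 6 differed the same way from the mean of the rest of its own group, by 0.74 and -0.99, and the other 6 libraries stayed between -0.43 and 0.45. Length therefore moved with YFP 5 and DN 6, and its part in the gene results was not tested.

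**Figure D2:**
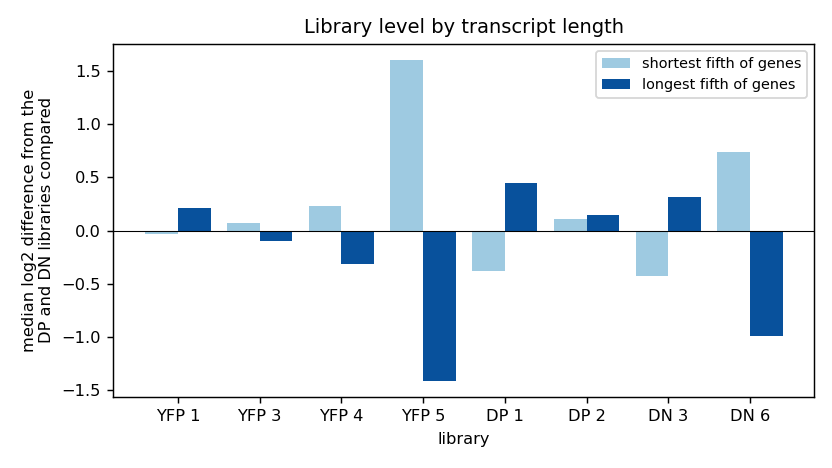
Median log2 difference (vertical) of each of the 8 libraries, for the 20% of genes with the shortest and the 20% with the longest transcripts. Each YFP library is set against the mean of the 4 DP and DN libraries, and each DP or DN library against the mean of the rest of its group. Short genes stand high and long genes low in YFP 5 (1.60 and -1.41) and, less so, in DN 6 (0.74 and -0.99).

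With edgeR's quasi-likelihood test and Benjamini-Hochberg adjustment, no gene passed 0.05 in either direction: 0 of 12941 were called higher in YFP (0%) and 0 lower (0%), with a smallest adjusted p of 0.731. At an unadjusted p below 0.05 there were 797 genes higher and 30 lower, counts that moved strongly with the setting. They were 1510 and 24 in edgeR with RLE size factors in place of TMM. Without 1 library they were 188 and 7 (DP 1), 196 and 10 (DN 3) and 473 and 133 (YFP 5). When the replicate number entered the fit as a block they were 754 and 725. Without YFP 1 and YFP 5 the balance turned to 215 higher and 304 lower. DESeq2 called 32 genes higher and 0 lower among the 9104 it gave an adjusted p (0.351% higher), and 26 of the 32 had their highest YFP value in YFP 5. Without overlap, 104 genes (0.804%) were above all 4 DP and DN libraries in all 4 YFP libraries and 189 (1.46%) were below. The common dispersion was 0.626, and the log2 difference over all genes tested had a median of 0.04, with 51.8% of genes higher in YFP. Scaling by RLE size factors moved that median to 0.25, so a list near 0 has no stable sign.

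The genes without overlap and with the smallest p are shown first. Among the 12 named as higher in YFP were a lipid receptor, secreted and alternatively activated macrophage products, adhesion and barrier proteins and platelet glycoproteins. None passed edgeR's test (each with adjusted p = 0.731), DESeq2 called 8 of them, and 3 had no DESeq2 adjusted p. They were selected because the groups do not overlap, so the separation of the points is part of the choice.

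**Figure D3:**
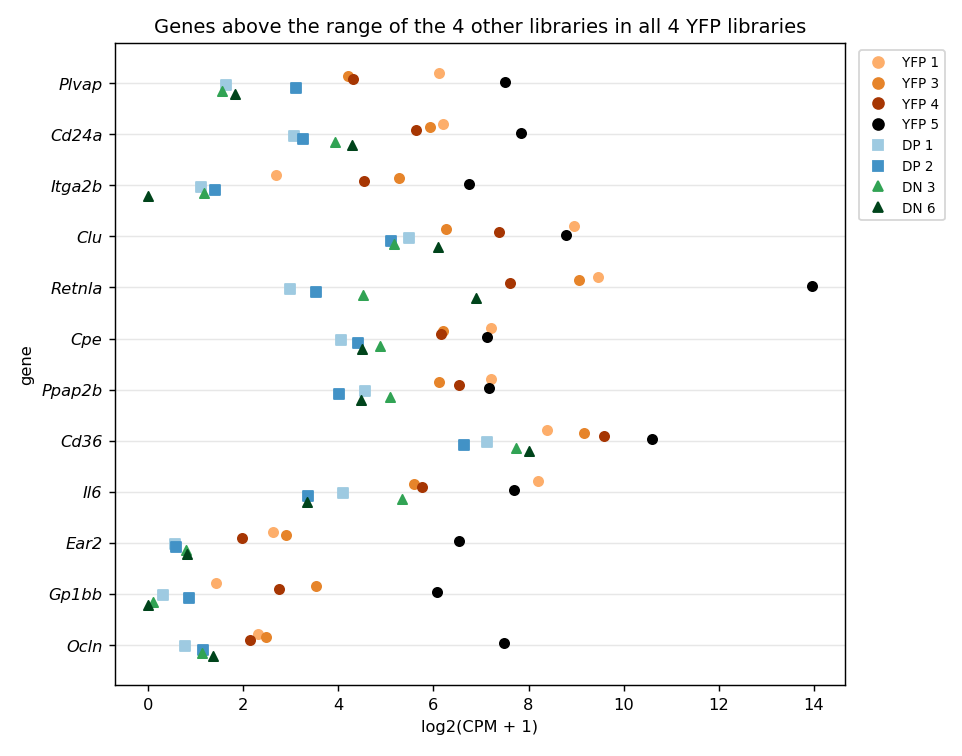
Level as log2(CPM + 1) of the 12 genes named as higher in YFP, 1 point per library, circles for YFP, squares for DP and triangles for DN. Retnla in YFP 5 (15879 CPM) lies far to the right of all other points, and DN 6 is the closest of the other libraries to YFP for Retnla and Cd36.

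Cd36 (chr5:17781690-17888801), the scavenger receptor that takes up oxidised lipoprotein, had 333, 577, 763 and 1546 CPM against 138, 98.2, 211 and 258 CPM. That gave a log2 difference of 2.19 (SE 0.56, edgeR adjusted p = 0.731), between 1.36 and 2.69 under every other setting tried. Each YFP library was above the highest of the others, DN 6, and the lowest was YFP 1.

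Retnla (chr16:48842551-48844461), a secreted product of alternatively activated mouse macrophages, had 703, 537, 193 and 15879 CPM against 6.88, 10.6, 22 and 118 CPM. The log2 difference was 6.78 (SE 1.58, edgeR adjusted p = 0.731), and 3.56 without YFP 5. YFP 5 stood far above the other YFP libraries, and DN 6 was above the other DP and DN libraries, next below YFP 4. Ear2 (chr14:44102654-44103534), an eosinophil-type ribonuclease also found in macrophages, stood at 5.17, 6.41, 2.92 and 92.3 CPM against 0.469, 0.488, 0.735 and 0.749 CPM, a log2 difference of 5.43, or 2.96 without YFP 5. Against all 7 libraries labelled DP or DN the log2 differences were 1.55 for Retnla and 0.56 for Ear2. Retnla and Ear2 have near relatives that could share reads, so the values of both genes are uncertain.

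Clu (chr14:65968483-65981547), the extracellular chaperone clusterin, had 493, 76.1, 165 and 442 CPM against 43.6, 33.6, 34.8 and 66.9 CPM, a log2 difference of 2.72 (SE 0.63, edgeR adjusted p = 0.731). Cpe (chr8:64592542-64693054), a carboxypeptidase that trims prohormones, had 148, 72.1, 70.9 and 138 CPM against 15.6, 20.3, 28.4 and 21.7 CPM. Ppap2b, a lipid phosphatase of the cell surface now named Plpp3, had 148, 68, 91.9 and 143 CPM against 22.6, 15.2, 32.9 and 21.1 CPM. In Cpe and Ppap2b the YFP libraries lay close together, unlike in Retnla, and the DESeq2 adjusted p-values were 0.0275 and 0.0289. Against all 7 libraries labelled DP or DN, however, the log2 difference in edgeR was -0.66 for Cpe, 0.88 for Ppap2b and 1.14 for Clu.

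Cd24a (chr10:43578284-43584265), a small sialylated surface protein of cross-presenting dendritic cells, B cells and other leukocytes, had 72.2, 60.2, 48.4 and 230 CPM against 7.43, 8.62, 14.3 and 18.4 CPM. Its log2 difference was 3.07 (SE 0.69, edgeR adjusted p = 0.731), 2.29 without YFP 5 and -1.15 against all 7 libraries labelled DP or DN. Il6 (chr5:30013114-30019981), the inflammatory cytokine, had 293, 47.5, 53.1 and 206 CPM against 16, 9.27, 39.2 and 9.06 CPM. DN 3 came close to YFP 3 and YFP 4 for Il6, and YFP 1 and YFP 5 held the high values. Its log2 difference was 3.03, with 2.34 without YFP 1 and 0.88 against all 7 libraries labelled DP or DN.

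Plvap (chr8:71497765-71511752), a protein of endothelial fenestrae that some macrophages also make, had 68.6, 17.4, 18.8 and 180 CPM against 2.11, 7.64, 1.94 and 2.52 CPM. Its log2 difference was 4.32 (SE 0.96, edgeR adjusted p = 0.731), with 3.29 without YFP 5, 2.35 without YFP 1 and YFP 5 and 2.24 against all 7 libraries labelled DP or DN. YFP 3 and YFP 4, the YFP libraries most like the DP and DN ones, came closest to DP 2, the highest of those. That they lay above it follows from the choice of genes without overlap. Ocln (chr13:100496507-100552718), the tight junction protein occludin, rested on YFP 5: it had 3.98, 4.58, 3.44 and 177 CPM against 0.704, 1.22, 1.2 and 1.57 CPM, a log2 difference of 5.32, or 1.75 without YFP 5.

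The gene lists were read as counts and medians beside the same values for all genes tested, and edgeR called no member of any list. In bulk samples, fewer cells of a type and less RNA per cell cannot be told apart. Of the 45 lists, 40 had a positive median log2 difference, and 27 without YFP 5. Their 653 tested entries, from 578 distinct genes, included 19 that lay above all 4 DP and DN libraries in all 4 YFP libraries, beside 0.804% of all genes. A gene in several lists, such as Cd36, counts once in each, so the 19 is not a count of genes. Entries below all 4 in all 4 YFP libraries were fewer: no list held more than 1, beside 1.46% of all genes. Stab1 was that entry in the resident macrophage, lipid uptake and efferocytosis lists, and Cd93 in the complement list. The nonclassical monocyte, type I interferon, cell cycle and tissue dissociation lists held 1 each, and the remaining lists held none.

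Foamy or TREM2-high macrophage genes, which serve lipid handling and lysosomal breakdown in lipid-loaded macrophages, were on the higher side in YFP for 20 of 20 tested members. Their median log2 difference was 1.59, beside 0.04 over all genes, and it was 0.41 without YFP 5. Itgax is not in this list, and Fabp4 and Cd36 were the only members above all DP and DN libraries. The list level, a mean of log2(CPM + 1), was 8.96, 9.61, 10.61 and 11.98 against 8.63, 8.71, 8.65 and 10.05. DN 6 thus stood above YFP 1 and YFP 3, apart from the rest of its own group.

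Gpnmb (chr6:49036546-49070929), a lysosomal membrane glycoprotein of foam cells, had 1341, 2102, 5670 and 12294 CPM against 804, 368, 427 and 2024 CPM. Fabp4 (chr3:10204088-10208576), a cytosolic fatty acid carrier, had 21.2, 32.6, 41.2 and 212 CPM against 3.21, 20.3, 5.22 and 10.4 CPM. Lpl (chr8:68880491-68907448), the lipase that frees fatty acids from lipoproteins, had 896, 1588, 2720 and 6683 CPM against 601, 729, 597 and 1299 CPM. In all of these YFP 5 was highest, YFP 4 second and YFP 1 lowest of the YFP libraries, and DN 6 reached into the YFP range for Gpnmb and Lpl. The log2 differences were 2.56 for Gpnmb, 2.97 for Fabp4 and 1.88 for Lpl, and without YFP 5 they were 1.74, 1.71 and 1.11.

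Cathepsins and cystatins, the lysosomal proteases and their inhibitors, were on the higher side for 14 of 15 tested members, with a median of 0.76, or 0.17 without YFP 5. Ctsk (chr3:95499256-95509362), a collagen-cleaving cathepsin, was the only member without overlap, at 436, 402, 1282 and 1860 CPM against 109, 110, 117 and 378 CPM. Its log2 difference of 2.48 (SE 0.66, edgeR adjusted p = 0.731) stayed between 1.89 and 3.16 under every other setting tried. Ctsl (chr13:64359337-64370890), a broad endoprotease, had 1013, 1116, 3063 and 8846 CPM against 425, 362, 516 and 1480 CPM, so DN 6 exceeded YFP 1 and YFP 3. The vacuolar proton pump, which acidifies lysosomes, was on the higher side for 13 of 16 members (median 0.74, or 0.16 without YFP 5). Its macrophage and osteoclast subunit Atp6v0d2 (chr4:19876841-19922605) had 216, 270, 673 and 1367 CPM against 92.7, 85.3, 101 and 223 CPM, with YFP 1 just below DN 6. Lysosomal hydrolases and membrane proteins as a whole had a median of 0.23, and -0.09 without YFP 5.

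Cholesterol genes pointed in both directions. Genes of efflux and storage were on the higher side for 13 of 16 members (median 0.68), but their median was -0.02 without YFP 5. Genes of cholesterol synthesis were on the lower side for 15 of 20 (median -0.48, and -0.18 without YFP 5). YFP 5 had a level of 2.31 for the synthesis list while all 7 other libraries lay between 3.97 and 4.40. Lipid uptake receptors were split, 7 higher and 7 lower, with Cd36, Fabp4 and Lpl on the one side and the scavenger receptor Stab1 on the other.

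**Figure D4:**
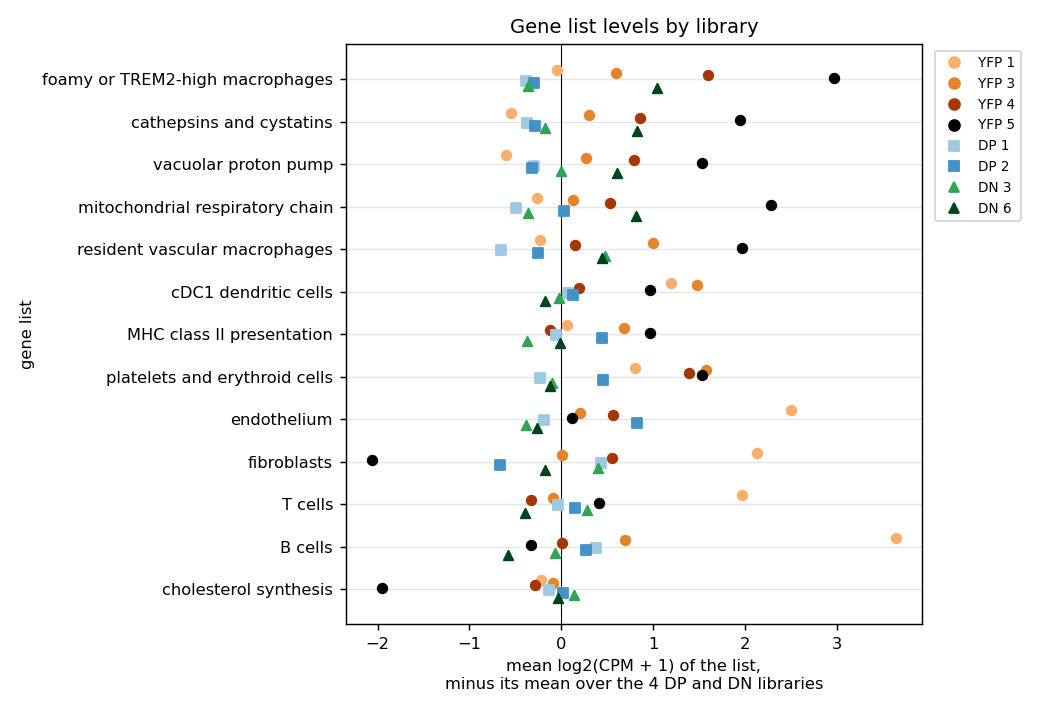
Mean log2(CPM + 1) of each gene list in each library, minus the mean of the 4 DP and DN libraries (horizontal), for 13 of the 45 lists. The lysosomal, respiratory chain and foamy lists stretch out towards YFP 5, DN 6 lies on the same side as YFP 4 in them, and the B cell, T cell, endothelial and fibroblast lists are highest in YFP 1.

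Resident vascular macrophage genes, which mark the long-lived macrophages of the outer wall, were on the higher side for 15 of 17 members, with a median of 0.96, or 0.42 without YFP 5. Against all 7 libraries labelled DP or DN the median was -0.21. Folr2 (chr7:101839988-101857194), a folate receptor, had 135, 204, 346 and 2118 CPM against 68.1, 92.1, 88.5 and 308 CPM. Cd209f (chr8:4102787-4105835), a lectin of the DC-SIGN family, had 16.6, 60.4, 3.79 and 428 CPM against 0.547, 1.95, 8.76 and 10.4 CPM, so YFP 4 lay within the range of the others. Stab1 and Mrc1, further markers of these macrophages, pointed the other way at -2.02 and -0.34. The members of this list therefore pointed in both directions.

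Pan-macrophage markers were split 9 to 4 (median 0.32, or -0.39 without YFP 5), with the growth factor receptor Csf1r at -0.97 and the lysozyme Lyz2 at 1.29. Their summed level ran from 8970 CPM in YFP 1 to 107535 CPM in YFP 5, while the DP and DN libraries lay between 18699 and 41117 CPM. In this sum YFP 1 was thus the lowest and YFP 5 the highest of all 8, on the scaling described above. The sum does not measure how many macrophages a library held. Alternative activation genes had 10 of 16 members on the higher side (median 0.26), and Retnla, Ear2, Ccl24 and Clec10a took the largest values. Clec10a (chr11:70156197-70170834), a galactose-binding lectin, had 28.7, 82.7, 11.5 and 423 CPM against 17, 28.3, 34.1 and 29.1 CPM. Arg1, an arginine-degrading enzyme of the same state, was at -0.53. Mfge8 (chr7:79133768-79149060), which bridges dying cells to phagocytes, had 397, 375, 1130 and 2376 CPM against 248, 117, 95.1 and 399 CPM, yet the efferocytosis list as a whole had a median of 0.42, and -0.23 without YFP 5.

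Genes of the cDC1 lineage, the dendritic cells that cross-present antigen to CD8 T cells, were on the higher side for 12 of 13 members. Their median was 1.26, with 0.87 without YFP 5 and 0.60 without YFP 1 and YFP 5. The list level of all YFP libraries (6.17, 6.45, 5.17 and 5.94) lay above that of the DP and DN libraries (5.05, 5.10, 4.95 and 4.80), with YFP 4 closest to them. Itgae (chr11:73090583-73147446), the CD103 integrin subunit of cDC1 and of tissue T cells, had 61.8, 61.2, 2.97 and 59.7 CPM against 5.94, 6.1, 2.41 and 1.91 CPM. Its log2 difference was 3.50 (SE 0.93, edgeR adjusted p = 0.731), with a DESeq2 adjusted p of 0.0071. YFP 4 had the DP and DN level of this gene.

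Naaa (chr5:92257659-92278170), a lysosomal amidase abundant in cDC1, had 187, 258, 134 and 452 CPM against 92, 101, 91.6 and 137 CPM, with YFP 4 just under DN 6. Batf3 (chr1:191097847-191108945), the transcription factor that cDC1 need, rested on YFP 5, with 9.62, 13.3, 4.72 and 138 CPM against 5.24, 13.2, 3.01 and 6.6 CPM. Clec9a (chr6:129408862-129424763), the dead-cell receptor that defines cDC1, was chosen after its values were seen. It had 22.3, 13.5, 1.11 and 0 CPM against 1.02, 2.36, 1 and 0.136 CPM, so YFP 5 had no read of it, which allows a level of up to 0.312 CPM (3 reads). The YFP libraries with Itgae thus did not all hold Clec9a, and Xcr1, the other defining receptor, had a log2 difference of 2.06.

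MHC class II presentation genes were on the higher side for 10 of 11 members (median 0.83, or 0.14 without YFP 5), and the list levels of both groups overlapped. The cDC2 list had 8 of 11 higher (median 0.49, or -0.09 without YFP 5). Mature migratory dendritic cell genes were split 6 to 7 (median -0.04, or 0.18 with RLE size factors), with their homing receptor Ccr7 at -0.04. Cd200 (chr16:45382135-45409053), a surface ligand that restrains myeloid cells, was the member without overlap, at 154, 77.9, 163 and 48.3 CPM against 29.1, 19.9, 46.1 and 32.7 CPM. Its log2 difference was 1.80 (SE 0.58, edgeR adjusted p = 0.731), and YFP 5 was the lowest YFP library, unlike in most genes above.

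The series title names migrating and dancing macrophages, so genes of cell movement were read by role. Among CC and CXC chemokine ligands 15 of 22 were on the higher side (median 0.30, or 0.24 without YFP 5), and no member was free of overlap. Ccl24 (chr5:135569937-135573049), an eosinophil attractant, had 2.4, 26.7, 5.6 and 147 CPM against 1.02, 2.36, 3.21 and 3.81 CPM. Ccl6 (chr11:83587882-83593087), a CC chemokine of mouse myeloid cells, had 466, 1205, 1045 and 11465 CPM against 138, 307, 430 and 746 CPM. Ccl8 (chr11:82115185-82116799), a further CC chemokine, had 102, 192, 82.5 and 1310 CPM against 17.8, 39, 73.6 and 147 CPM. In each of these YFP 5 stood far above the other YFP libraries. Against all 7 libraries labelled DP or DN the log2 differences of Ccl24, Ccl6 and Ccl8 were -1.30, -0.84 and -0.44. Chemokine receptors other than Cx3cr1 had 10 of 13 on the higher side (median 0.46, and -0.19 without YFP 5).

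Actin and motility genes were on the higher side for 16 of 22 (median 0.31, or -0.22 without YFP 5), with cofilin Cfl1 at 1.39 and the activator Dock8 at -1.03. Guidance and egress genes were on the lower side for 9 of 14 (median -0.08, which became 0.26 with RLE size factors). Plxnb2 (chr15:89155549-89180788), a semaphorin receptor, had 172, 202, 168 and 72.1 CPM against 505, 273, 439 and 182 CPM, and overlapped only in DN 6. Matrix proteases and inhibitors were on the higher side for 13 of 13 members (median 0.85), and here the median was 0.98 without YFP 5 and 0.58 without YFP 1 and YFP 5. Mmp12 (chr9:7344381-7369499), the macrophage elastase, had 1497, 2847, 5543 and 9331 CPM against 918, 1010, 1175 and 2025 CPM. Mmp13 (chr9:7272514-7283331), a collagenase, had 7.02, 204, 214 and 278 CPM against 28.4, 22.6, 75.1 and 16.6 CPM. For Mmp13 YFP 1 was the lowest library of all 8, and the other YFP libraries were above every DP and DN library.

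Of inflammatory cytokine and inflammasome genes, 10 of 18 were on the higher side (median 0.21) and Il6 alone was free of overlap. Il1b, a main inflammasome product, was at -0.08 and Tnf at -0.36. Type I interferon response genes were split 13 to 12, with a median of 0.01. The mitochondrial respiratory chain had 18 of 20 on the higher side (median 1.38), but -0.04 without YFP 5. Cox6c (chr15:35925886-35938246), a subunit of cytochrome oxidase with a short transcript, had 43.2, 51.2, 70.3 and 750 CPM against 20.8, 50.7, 23.5 and 69.9 CPM, so YFP 1 and YFP 3 overlapped with DN 6 and YFP 4 barely exceeded it. Tissue dissociation genes, which respond to enzymatic digestion, were split 14 to 8 with a median of 0.09.

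Of the genes below the DP and DN range in all YFP libraries, the 12 named had smaller log2 differences than the 12 named as higher, from -0.88 to -2.13 beside 2.19 to 6.78. None of the 12 named passed edgeR's test (adjusted p from 0.731 to 0.743), and DESeq2 called none of them. Because they were picked for lying below in every YFP library, their negative sign in fits that leave libraries out follows from the choice.

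**Figure D5:**
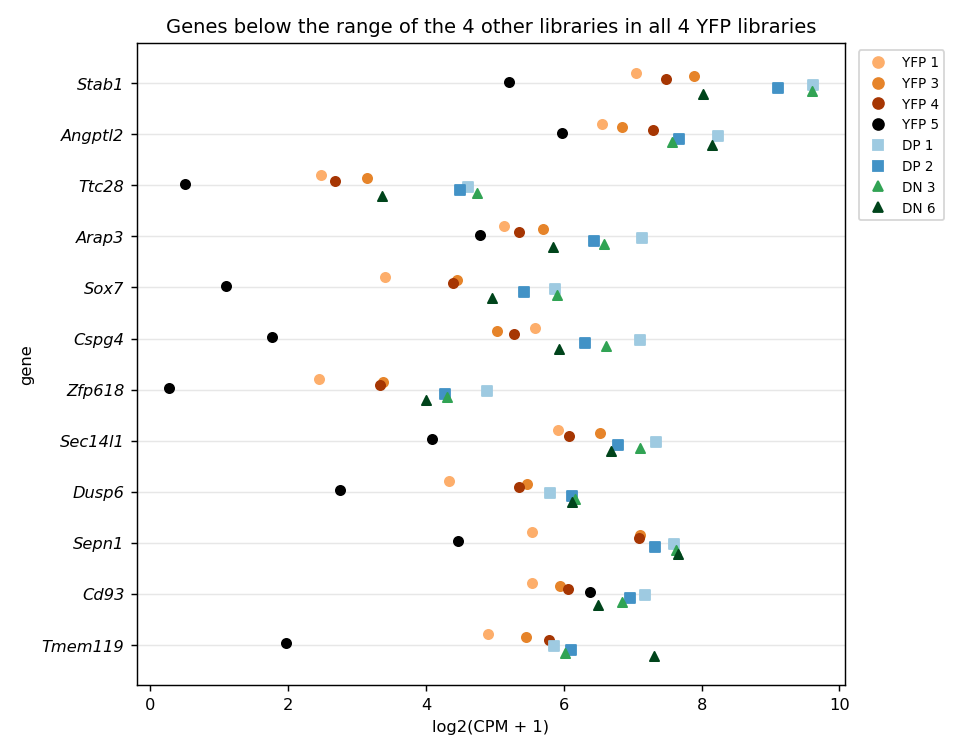
Level as log2(CPM + 1) of the 12 genes named as lower in YFP, 1 point per library, circles for YFP, squares for DP and triangles for DN. YFP 5 is the lowest library for all of them except Cd93, and DN 6 is the DP or DN library closest to YFP for 8 of the 12, Stab1 among them.

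Stab1 (chr14:31139013-31168641), a scavenger receptor of resident macrophages and sinusoidal endothelium, had 132, 236, 178 and 35.8 CPM against 781, 552, 777 and 258 CPM. Its log2 difference was -2.02 (SE 0.60, edgeR adjusted p = 0.731), and -1.52 with only YFP 3 and YFP 4. DN 6 lay just above YFP 3. Cd93 (chr2:148436640-148443563), a phagocyte and endothelial glycoprotein that binds matrix, had 45.6, 60.5, 66 and 82.5 CPM against 144, 123, 114 and 89.1 CPM. Tmem119 (chr5:113793729-113800516), best known as a microglial marker, had 28.9, 42.9, 54.3 and 2.91 CPM against 56.9, 67.9, 64.1 and 158 CPM. For Tmem119 YFP 4 and DP 1 nearly met, while DN 6 stood highest.

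Sox7 (chr14:63943673-63950732), a transcription factor, had 9.55, 20.8, 20 and 1.14 CPM against 57.6, 42, 58.9 and 30.1 CPM, a log2 difference of -1.87 (SE 0.81, edgeR adjusted p = 0.731). Cspg4 (chr9:56865033-56899870), the NG2 proteoglycan known from pericytes, had 46.7, 31.8, 37.9 and 2.39 CPM against 137, 78.3, 96.7 and 59.7 CPM. Dusp6 (chr10:99263231-99267489), a phosphatase that turns off ERK, had 19.2, 43.1, 39.6 and 5.72 CPM against 54.5, 68.6, 70.6 and 68.6 CPM. YFP 5 was lowest for all of these, and YFP 3 and YFP 4 lay next to each other for each. Angptl2 (chr2:33216069-33247717), a secreted angiopoietin-like protein, had 93.2, 114, 156 and 61.7 CPM against 301, 202, 189 and 284 CPM, a log2 difference of -1.20. The other members of the 12 (Ttc28, Arap3, Zfp618, Sec14l1 and Sepn1) had log2 differences of -2.13, -1.31, -1.79, -1.12 and -1.14.

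Markers of other cell types differed between the libraries as well. Itga2b (chr11:102453297-102470122), the CD41 integrin subunit, had 5.45, 37.9, 22.2 and 107 CPM against 1.17, 1.63, 1.27 and 0 CPM. Gp1bb (chr16:18620317-18622403), a subunit of the von Willebrand factor receptor, had 1.67, 10.5, 5.77 and 66.1 CPM against 0.235, 0.813, 0.0669 and 0 CPM. Gp9 (chr6:87778072-87779768), of the same receptor, had 2.14, 6.85, 4.78 and 1.14 CPM against 0.391, 1.14, 0.0669 and 0 CPM, with YFP 5 and DP 2 at the same level to 3 digits. These 3 were the members of the platelet and erythroid list that lay above all DP and DN libraries, in every YFP library.

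All 6 tested members of that list were on the higher side, with a median of 3.20, 3.59 without YFP 5 and 3.97 without YFP 1 and YFP 5. The filter on low counts had kept these 6 of 10 matched members. Gp1bb and Gp9, near 0 in most DP and DN libraries, passed it mainly through the YFP libraries. Their positive sign is thus partly fixed by the filter, and the same can hold for low-count members of other lists. Itga2b had a log2 difference of 5.40 (SE 1.25, edgeR adjusted p = 0.731) and a DESeq2 adjusted p of 3.49e-05, and Gp1bb 6.23 (SE 1.48, edgeR adjusted p = 0.731) and 2.88e-05. Without YFP 5 the differences were 4.45 for Itga2b and 4.46 for Gp1bb, and with only libraries numbered 1 or 2 they were 1.92 and 1.65. The summed list level was 73.9 to 1480 CPM in YFP and 25.8 to 111 CPM in the others. The globin genes Hba-a1 and Hbb-b1 had 0 reads in all 8 libraries, and Itga2b, Gp1bb and Gp9 had 0 in DN 6, where 3 reads would be 0.204 CPM. Whether these transcripts came from other cells in the sort was not tested.

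Endothelial markers were on the higher side for 9 of 12 members (median 2.02, or 0.34 without YFP 1 and 0.39 without YFP 1 and YFP 5). Pecam1 (chr11:106654217-106750628), the CD31 adhesion molecule of endothelium, platelets and leukocytes, had 73.7, 21, 20.4 and 94.4 CPM against 7.19, 14.7, 7.89 and 5.17 CPM. Vwf (chr6:125546774-125686679), the clotting protein of endothelium and platelets, had 93.3, 25.5, 19.6 and 49.4 CPM against 18, 13.8, 9.49 and 7.15 CPM. Both genes were free of overlap, while Cldn5 (chr16:18776847-18778262), an endothelial tight junction protein, was high only in YFP 1 and YFP 5, at 19, 0.741, 0.992 and 65.8 CPM against 0.704, 1.79, 0.468 and 0.953 CPM. The summed endothelial level was 94.7 to 418 CPM in YFP and 61.4 to 124 CPM in the others, Tek, Egfl7 and Emcn had 0 reads in YFP 5, and Tie1 had 0 in DN 6. These levels stood beside that of Plvap, and their part in its value was not tested.

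B cell and fibroblast transcripts were highest in YFP 1. The B cell receptor component Cd79a (chr7:24897381-24902197) had 173, 5.32, 3.32 and 0.104 CPM against 5.24, 3.42, 0.334 and 0.136 CPM. YFP 1 was far above the rest, YFP 3 was next to DP 1, and YFP 5 and DN 6 had fewer than 3 reads each. The B cell list was on the higher side for 9 of 9 members (median 3.20), but its median was 0.44 without YFP 1, and its summed level was 78.7 to 776 CPM in YFP and 49.7 to 68 CPM in the others. T cell markers were on the higher side for 11 of 13 (median 1.10). Their median was -1.0 without YFP 1 and -2.98 against all 7 libraries labelled DP or DN. The summed T cell level was 257, 247, 309 and 496 CPM against 170, 112, 289 and 152 CPM. YFP 5, not YFP 1, was highest in that sum. Cd3d and Lat, parts of the T cell receptor complex and its signalling, were highest in YFP 5 at 76.3 and 165 CPM, although Lck and Bcl11b had 0 reads there. Both overlapped with the DP and DN libraries, while 1 member of the list was free of overlap. Cd2, also in the list, had a log2 difference of 2.70. Fibroblast markers were on the higher side for 12 of 12 (median 0.84, but -0.29 without YFP 1), from 1187 to 11414 CPM in sum in YFP and 1377 to 4212 CPM in the others. No fibroblast marker of the list was at 0 reads in any library, in cells sorted on CD45.

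Smooth muscle markers were on the higher side for 9 of 12 (median 0.77, or -0.55 without YFP 1), and neutrophil markers for 7 of 11 (median 0.66). Against all 7 libraries labelled DP or DN the neutrophil median was -5.17 and that of eosinophil, mast cell and basophil genes was -3.22, beside 0.99 in the main comparison. The part of these other cells in the genes above was not tested.

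Genes whose level ran most like Itgax over the 8 libraries were ranked by Spearman's rho among 6230 genes, as a description. Nfkbid, an inhibitor-type partner of NF-kappaB, was closest (rho 0.976), at 252, 319, 356 and 717 CPM against 339, 326, 295 and 291 CPM. It was followed by the lysosomal nuclease Dnase2a (0.952), the ubiquitin ligase Trim25 (0.929), Hs1bp3 (0.905) and the angiogenic factor Vegfa (0.905), which tied with Sntb2 and Zbtb7a. Vegfa had 43.3, 174, 246 and 727 CPM against 176, 184, 154 and 172 CPM. For all 5 genes YFP 5 was the highest library and YFP 1 the lowest or, for Trim25, second lowest. The 8 points of each correlation share their libraries, with the depth, composition and scaling factor of each.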

How the data were processed

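RNA of sorted CD45+ cells was amplified with the SMART-seq v4 kit over 11 cycles and made into libraries with Nextera XT, per the labels' protocols, and TopHat 1.4.1, SAMtools, HTSeq 0.7.1 and mm10 are named in the submitters' processing notes. The table the authors deposited gives raw counts, as whole numbers, for 23337 gene symbols and 18 libraries. The gene annotation and whether counting used strand are not given in the sources used here; antisense and overlapping genes cannot be told apart. Without molecular identifiers reads need not be independent molecules, and floors of 3 reads cover counting error only.

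The 8 libraries were fitted alone with edgeR 4.0.16 in R 4.3.3: filterByExpr by the 2 groups (12941 genes kept), TMM scaling, robust quasi-likelihood fit and test, Benjamini-Hochberg adjustment over all genes tested, threshold 0.05. DESeq2 1.42.0 and the other settings of the closing section were alternatives. CPM values use the same TMM scale, and log2 differences are YFP minus the DP and DN libraries. No pair within a group was a repeat of the same library: the chi-square over genes, divided by its degrees of freedom, was 42.57 or more.

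The libraries, lists (45 lists, 687 of 689 entries matched) and tests were chosen with earlier results of these data known. Genes were named by rule: 12 in each direction without overlap between the groups, averaging 20 CPM or more in the higher group, by the smallest p where fewer were called; up to 4 members of each list by the smallest p; and 5 genes most like Itgax, the last of them tied with others. Members given only as a log2 difference to describe a list lie partly outside it, and were chosen after their values were seen. Coordinates are from GENCODE M21 (mm10), which held 20953 of the symbols; Ppap2b and Sepn1 did not match. The replicate numbers 1 and 3 occur in both groups, and their libraries deviated together at 0.50 and 0.44, the highest values of any YFP library with a DP or DN library. Next came YFP 5 and DN 6, of different numbers, at 0.37, and the lowest was YFP 1 and DN 6 at -0.54. Sex-linked genes ran with the number in part. Xist was low and Ddx3y high in YFP 3 (1.66 and 83.5 CPM), DN 3 (2.54 and 115 CPM) and GFP 3 (3.99 and 88.7 CPM). Ddx3y had 5 reads in DN 6 and 3 in GFP 6. Number 5 differed in Xist, with 1.35 CPM in YFP 5 beside 18.2 CPM in GFP 5 and 23.8 CPM in DP 5. Whether equal numbers mark pairs is not in the labels and was not tested. The main fit did not take them as pairs, and the replicate block is given as an alternative.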

Additional observations from a re-analysis of the deposited data

Results flagged for a closer look

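A library far from the other 3 of its group was looked for with Dixon's test on log2(CPM + 1) of the named genes and on the list levels. Of 208 groups checked, 15 held such a library, and chance alone flags about 1 in 20 groups.

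Among YFP libraries, YFP 5 lay apart for Cspg4 (2.39 CPM, low), Ocln (177 CPM, high), Cox6c (750 CPM, high) and the cholesterol synthesis list level (2.31, low). YFP 1 lay apart for Mmp13 (7.02 CPM, low) and the efferocytosis list level (6.69, low). YFP 4 lay apart for Itgae (2.97 CPM, low).

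Among the DP and DN libraries, DN 6 lay apart for Ctsk (378 CPM, high), the foamy macrophage list level (10.05, high) and the cathepsin list level (10.08, high). DN 3 lay apart for the inflammatory cytokine list level (8.13, high). DP 1 lay apart for Dusp6 (54.5 CPM, low). DP 2 lay apart for Plvap (7.64 CPM, high) and for the smooth muscle and endothelium list levels (4.23 and 2.90, both high).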

How the results depend on the processing

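The counts of genes called (0 higher and 0 lower) were the same in every leave-one-out fit (0 to 0 in both directions). They were also the same in edgeR with RLE size factors, without the filter on low counts and with YFP 6 included. Fits against the DP or the DN libraries alone and against all 7 libraries labelled DP or DN gave 0 and 0 too. So did fits with the GFP libraries, with a term for libraries numbered 1 or 2 and with only libraries numbered 3 to 6. With the replicate number as a block, 0 and 0 genes were called, on 1 residual degree of freedom. DESeq2 called 32 higher and 0 lower. With only libraries numbered 1 or 2 (YFP 1 against DP 1 and 2, the lone library assumed to vary like the others) 932 genes were higher and 406 lower. The cause of these changes was not tested.

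Of 57 named genes with a fitted value, 11 changed sign under at least 1 setting, and 1184 of 1197 fitted values kept their direction. The 12 genes named in each direction were chosen for no overlap, and most others for the smallest p of their list. The kept directions therefore follow largely from the choice and do not measure stability. Against all 7 libraries the log2 difference was -1.15 for Cd24a, -0.66 for Cpe, -1.30 for Ccl24, -0.84 for Ccl6, -0.44 for Ccl8, -0.01 for Mmp8, -1.31 for Ms4a1, -0.60 for Cd79a and -0.02 for Cd3d. Mmp13 was at -0.26 with the replicate block and -1.92 with libraries numbered 1 or 2. Leaving out both YFP 1 and YFP 5, chosen after seeing the data, gave -0.17 for Cldn5 and -0.28 for Cd3d, and called 0 genes. Depth limits genes at a few reads, such as Gp9 and Clec9a.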
